A study of Danio rerio with 6 samples.

Results

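The cytokine, chemokine and receptor genes of zebrafish atrial cardiomyocytes (CMs) were examined at 72 and 48 hours post fertilization (hpf). Members were the genes that the deposited table annotates with the KEGG term Cytokine-cytokine receptor interaction. Genes that also carry the Apoptosis or the TGF-beta signaling term were left out, as were genes with a mean raw count of 5 or less over the 6 libraries, symbols starting with bmp, gdf, tgfb, acvr or inhb, and csf1ra, kdrl, flt1 and tek. Of 23000 genes in the table, 127 carried the term, 102 remained without the excluded pathways, 64 passed the count minimum and 62 were members. The count minimum lay between il2rb, cxcr4a and il17ra1a, with a mean of 4.33 counts each, and crfb2 and kdr, with means of 5.5 and 6.17 counts. The rule did not use the difference between the stages, but a gene near 0 in one stage could pass the minimum only through its counts in the other.

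The study asked which genes change in atrial CMs before these cells elongate to build the inner muscle of the atrium. Both groups were wild-type embryos carrying the reporters myh6:mTagBFP2 for atrial CMs, myh7:mCherry-NTR for ventricular CMs and 7XTCF-Sia:eGFP for CMs of the atrioventricular canal and sinus venosus. Hearts of many animals were pooled and dissociated, live cells bright for mTagBFP2, with low or no mCherry and without eGFP, were sorted, and their RNA was sequenced in bulk, from 3 libraries at 72 hpf and 3 at 48 hpf. Replicates 1 and 2 of each stage were collected on 2 sorting instruments and replicate 3 on 1 of them. The methods state in general that experiments used several independent batches of animals, but neither they nor the labels say which batch or sorting session each library came from, so p-values measure only the spread between these libraries, which may be technical.

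Cytokines are secreted or membrane-bound proteins that act on nearby cells through cell surface receptors. Chemokines act on G protein-coupled receptors and guide migrating cells. Interleukins of the Il6 family signal through receptor chains that share gp130, the product of il6st, and through Jak kinases and Stat transcription factors. Tnf ligands act on Tnf receptors and, in many cases, on NF-kB. Vascular endothelial growth factor, Pdgf and Hgf act on receptor tyrosine kinases. In the embryonic heart, genes of these families are known from endocardial, epicardial and blood cells as well as from the myocardium.

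Atrial CM markers were present in all libraries, with sums that overlapped between the stages. The CPM (counts scaled to the library total) summed over 7 atrial CM markers was 3576, 3297 and 3891 in the 72 hpf libraries and 3188, 2687 and 3853 in the 48 hpf libraries. Among them nppa had 2540, 2463 and 2399 counts at 72 hpf, against 2632, 2536 and 2470 at 48 hpf, while nr2f1a ranged from 1401 to 2047. Duplicate removal can cap the counts of abundant genes, so these sums cannot show whether the atrial share was alike. The libraries held 3577234 to 4541886 counts at 72 hpf and 3694451 to 5629941 counts at 48 hpf, so that 3 counts corresponded to 0.661 to 0.839 CPM at 72 hpf and 0.533 to 0.812 CPM at 48 hpf, limits that cover counting error only. Markers of ventricular CMs, 8 genes, summed to 2346, 2111 and 2223 CPM at 72 hpf, against 2896, 2573 and 3312 CPM at 48 hpf, without overlap. Of the 7 of them tested 1 had a higher and 6 a lower estimate, and DESeq2 called 2 lower. The ventricular myosin gene myh7, whose promoter drives the mCherry used in the sort, had 3115, 2359 and 2738 counts at 72 hpf, against 5228, 4851 and 5003 at 48 hpf. The part of ventricular RNA in the results below was not tested. Markers of non-muscle cell types were present and uneven. A list of 20 leukocyte symbols, which match 21 genes, summed to 7.27, 161 and 9.23 CPM in replicates 1, 2 and 3 at 72 hpf, against 542, 458 and 999 CPM at 48 hpf. At 0 counts were 14, 8 and 17 of the 21 genes at 72 hpf and 4, 5 and 6 at 48 hpf. Markers of erythrocytes summed to 151 CPM in replicate 2 and to 4.4 and 11.2 CPM in replicates 1 and 3 at 72 hpf, against 692 CPM in replicate 3 and 10.2 and 24.0 CPM in replicates 1 and 2 at 48 hpf. Epicardial markers, 7 genes, summed to 676, 1342 and 1070 CPM at 72 hpf, against 970, 1177 and 673 CPM at 48 hpf, with overlap. Of these genes 3 had a higher and 4 a lower estimate, 1 and 2 of them at an unadjusted p-value under 0.05 (edgeR). The higher were aldh1a2, postnb and tjp1a, and the lower were tcf21, tbx18, wt1a and wt1b. The gene tjp1a had the most counts of the list in every library, with 2083, 2491 and 1558 at 72 hpf, against 2186, 1953 and 1232 at 48 hpf. In tcf21 the counts were 70, 227 and 63 at 72 hpf, against 316, 603 and 166 at 48 hpf. The sum therefore does not show that epicardial RNA was alike. The part of epicardial RNA in the results below was not tested. In bulk RNA, fewer cells of a type and less RNA per cell cannot be told apart.

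The members together held a lower share of the counts at 72 hpf, with overlap between the stages. Their summed CPM was 1305, 2073 and 1522 in the 72 hpf libraries (mean 1633 ± 396, SD, n = 3) and 2061, 2476 and 1954 in the 48 hpf libraries (mean 2164 ± 276, SD, n = 3). Replicate 2 at 72 hpf, the library of its stage with the most leukocyte and endothelial marker counts, lay above 2 of the 3 libraries at 48 hpf. The 22 ligand genes summed to 306, 611 and 375 CPM at 72 hpf and 498, 752 and 645 CPM at 48 hpf, and the 38 receptor genes to 995, 1456 and 1143 CPM at 72 hpf and 1553, 1710 and 1301 CPM at 48 hpf. A further 2 members were assigned no role.

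**Figure D1:**
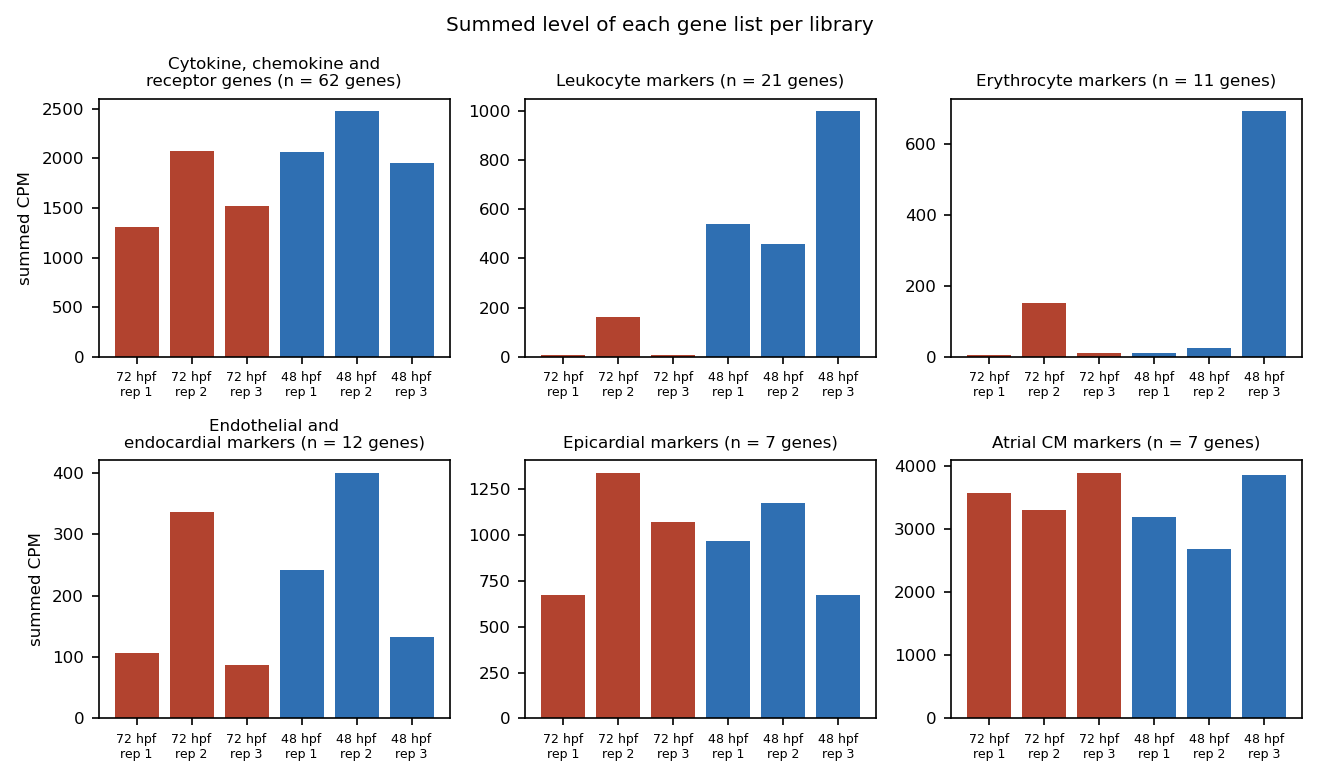
Summed CPM (y axis) of the 62 members and of 5 marker lists in each library (x axis, 1 bar per library, 72 hpf in red and 48 hpf in blue). The members ranged from 1305 to 2073 CPM at 72 hpf and from 1954 to 2476 CPM at 48 hpf, and the leukocyte markers from 7.27 to 161 CPM at 72 hpf and from 458 to 999 CPM at 48 hpf.

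Stages were compared with edgeR's quasi-likelihood test on the counts of all genes with a mean normalized count above 5, and a gene was called at a p-value below 0.05 after Benjamini-Hochberg adjustment and a difference of more than 1.5-fold. Of the 61 members tested, edgeR called 0 higher and 0 lower at 72 hpf, where it called 1 gene higher (0.00621%) and 0 lower (0%) of 16100. At an unadjusted p-value under 0.05, 1 member was higher and 11 were lower (18.0% of those tested), against 3.12% and 5.61% of all genes. DESeq2, the tool the authors used, called 1 member higher, ngfra, and 7 lower, cxcr3.2, flt4, il6r, cntfr, il21, ccr2 and zmp:0000000936, out of 53 with an adjusted p-value. Over all genes DESeq2 called 1.25% higher and 3.02% lower. Among the lower members of either tool, cxcr3.2, il6r, il21, il6, ccr2 and zmp:0000000936 were at or under 3 counts in every 72 hpf library. They passed the count minimum only through their counts at 48 hpf, which limits what these shares can show.

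The estimate was lower at 72 hpf for 43 members and higher for 18, against 51.5% lower among all genes. The median log2 fold change (72 hpf over 48 hpf, as are all fold changes here) was -0.76 for the members and -0.02 for all genes tested. With members at 0 in every 72 hpf library set to the bound that 3 counts per library allow, the median stayed at -0.76. It could not move, because these bounds, from 3.41-fold to 10.5-fold lower, all still lay below the median. The bounds take the 48 hpf mean as exact. Without members at or under 3 counts throughout a stage the median was -0.42 for 49 members and 0.00 for all genes. It was -0.44 without replicate 2 at 48 hpf. The number of members lower at an unadjusted p-value under 0.05 was 7 without that library and 6 without replicate 1 at 72 hpf, and the number higher was 2 without replicate 2 at 48 hpf and 0 without replicate 3 at 72 hpf. Replicate 2 at 72 hpf and replicate 3 at 48 hpf had the highest leukocyte and erythrocyte marker sums of their stages. Without both, 1 member was higher and 13 were lower at that p-value, with a median of -0.92. The libraries kept had leukocyte sums of 7.27 and 9.23 CPM at 72 hpf, against 542 and 458 CPM at 48 hpf. This fit therefore did not even out leukocyte RNA between the stages.

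All 3 libraries at 72 hpf lay below those at 48 hpf for 12 members tested and above them for 1, ngfra, where 9.31% and 7.25% of all genes did so. At or under 3 counts in every 72 hpf library were 13 of the 62 members, 12 of them among the 61 tested, and 0 members were so at 48 hpf, against 4.77% and 1.59% of all genes tested. Because of the count minimum this loss could be seen only in genes that the other stage carried over it.

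**Figure D2:**
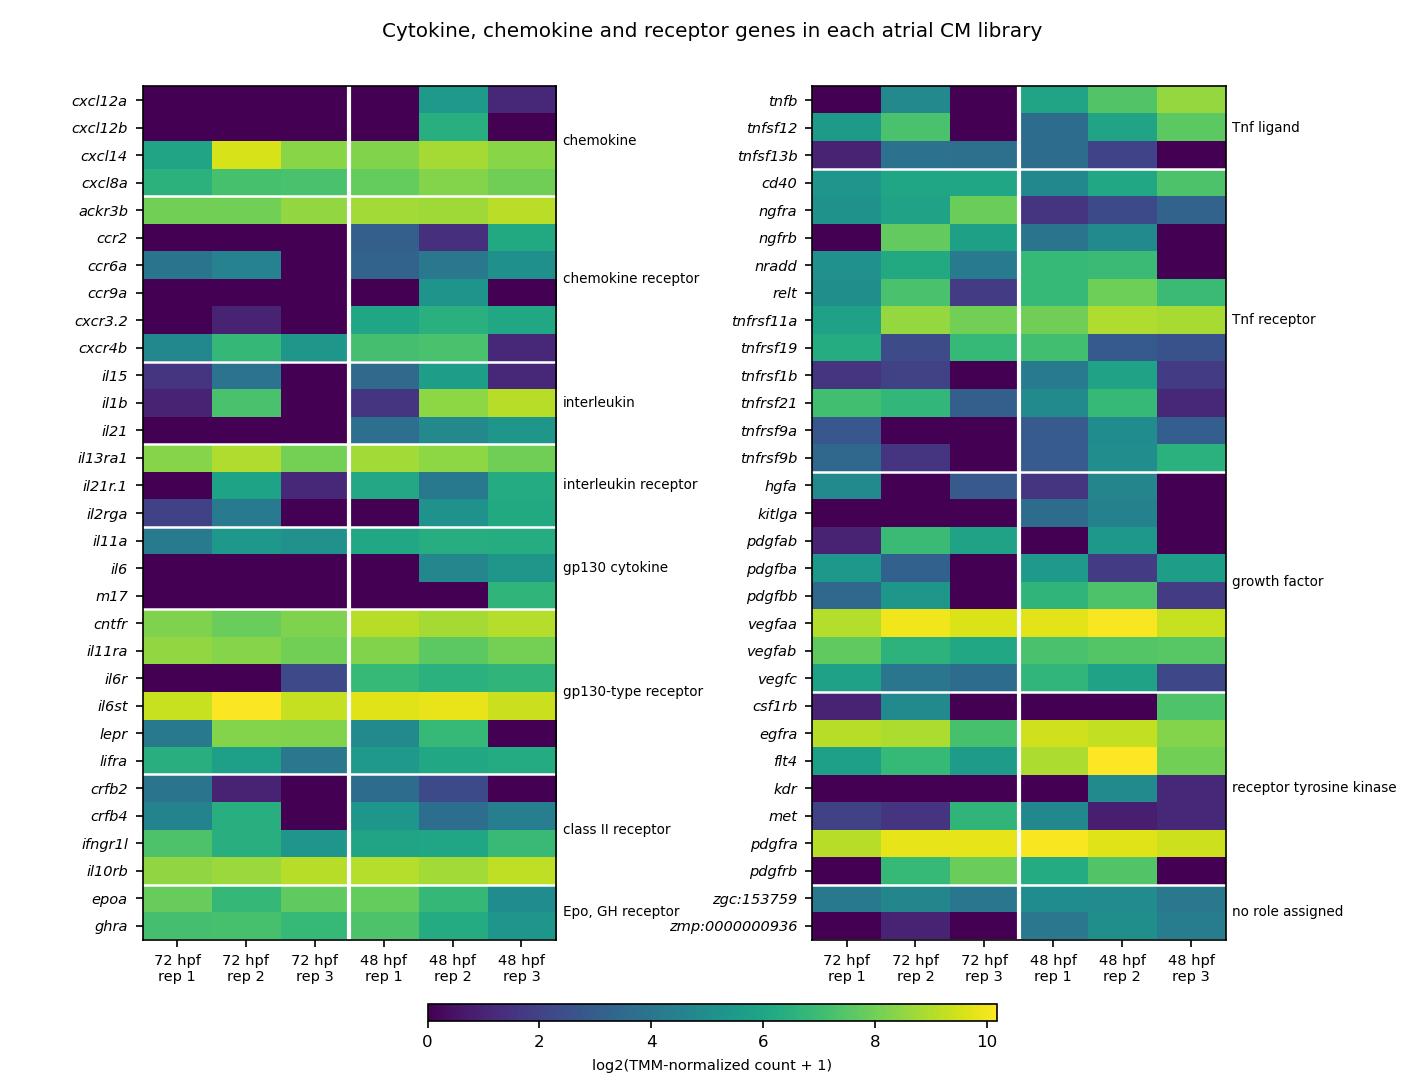
Level of each of the 62 members (rows, grouped by role) in each library (columns, 72 hpf left of 48 hpf), coloured by log2 of the TMM-normalized count plus 1. Dark cells are at or near 0 counts; 9 members were at 0 in all 72 hpf libraries, and genes such as vegfaa, pdgfra and il6st were bright in all 6.

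Of the 62 members, 22 were above 3 counts in all 6 libraries. The gp130 gene il6st, the shared signalling chain of the Il6 family, had 675, 1140 and 512 counts at 72 hpf, against 880, 1185 and 544 at 48 hpf, and its log2 fold change was -0.01 (standard error 0.26). The Pdgf receptor gene pdgfra had 570, 918 and 717 counts at 72 hpf, against 1151, 1058 and 567 at 48 hpf (log2 fold change -0.16, standard error 0.25). The stages overlapped in both genes. The angiogenic ligand gene vegfaa had 560, 1009 and 630 counts at 72 hpf, against 936, 1373 and 536 at 48 hpf (log2 fold change -0.18, standard error 0.27).

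The il10rb gene, which encodes a shared chain of class II cytokine receptors, had 376, 403 and 443 counts at 72 hpf, against 558, 549 and 490 at 48 hpf. After normalization its stages overlapped, with 437 ± 101 at 72 hpf and 519 ± 80.7 at 48 hpf (SD, n = 3 each). The receptor chain gene il13ra1 had 338, 510 and 212 counts at 72 hpf, against 464, 450 and 205 at 48 hpf, and the EGF receptor gene egfra had 569, 489 and 120 counts at 72 hpf, against 736, 764 and 258 at 48 hpf. Replicate 3 was the lowest of each stage in both. The log2 fold change was 0.07 for il13ra1 (standard error 0.32) and -0.45 for egfra (standard error 0.49). None of il6st, pdgfra, vegfaa, il10rb, il13ra1 and egfra was at an unadjusted p-value under 0.05 in edgeR, and the standard errors leave room for differences that 3 libraries cannot show. Exon lengths were not used here, so levels are not compared between genes.

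The 3 cytokine genes of the Il6 type, il6, il11a and m17, had lower estimates at 72 hpf. Of these, il6 and m17 were at 0 in every 72 hpf library. They passed the count minimum only through 48 hpf, which fixed their direction. Of the 6 receptor genes of this type, 4 had a lower and 2 a higher estimate. The libraries of the stages did not overlap in il6r, il11a and cntfr, and overlapped in the rest. The cytokine gene il6 (chromosome 19 of danRer11 from 2699136 to 2707048) had 0, 0 and 0 counts at 72 hpf, against 0, 32 and 34 at 48 hpf. Its 48 hpf mean was 6.96-fold above a floor of 3 counts per library at 72 hpf, a ratio that leaves out the spread at 48 hpf. The unadjusted p-value of il6 was 0.0466 and the adjusted p-value 0.564 (edgeR). Its absence from replicate 1 at 48 hpf made the stages touch at 0. The specific receptor gene il6r (chromosome 16, 22177254 to 22194400) was found with 0, 0 and 3 counts at 72 hpf, against 118, 115 and 83 at 48 hpf. All of its 48 hpf libraries stood apart from those at 72 hpf and close to one another, at 101 ± 10.2 normalized counts (SD, n = 3). The rate of counts was 94.4-fold lower at 72 hpf, with a 95% exact interval from 32.0 to 460.0 that covers counting error only. The log2 fold change of il6r was -6.30 with a standard error of 1.54 (adjusted p = 0.388 from edgeR and 1.18e-05 from DESeq2). With so few counts at 72 hpf, il6r passed the count minimum only through 48 hpf, which limits what its difference can show. Leukocyte markers summed to 7.27 to 161 CPM at 72 hpf, against 458 to 999 CPM at 48 hpf. How far leukocyte RNA made up the difference of il6r was not tested.

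The cytokine gene il11a had 18, 43 and 28 counts at 72 hpf, against 72, 101 and 65 at 48 hpf, without overlap between the stages. Its receptor gene il11ra had 391, 327 and 210 counts at 72 hpf, against 322, 251 and 219 at 48 hpf, with overlap. Neither gene was at an unadjusted p-value under 0.05 in edgeR, and DESeq2 called neither. The ciliary neurotrophic factor receptor gene cntfr (chromosome 10 from 13460130 to 13772861), whose product binds its ligand without a signalling domain of its own, lies 63410 bases from il11ra. It had 311, 231 and 239 counts at 72 hpf, against 573, 568 and 441 at 48 hpf. The libraries of the stages did not overlap, at 275 ± 39.3 normalized counts at 72 hpf and 509 ± 51.4 at 48 hpf (SD, n = 3 each), and the log2 fold change was -0.89 with a standard error of 0.20 (adjusted p = 0.350 from edgeR and 0.00228 from DESeq2). In the 6 fits that left out 1 library each, the log2 fold change of cntfr ranged from -0.97 to -0.77.

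The gene m17, which the table names as a ciliary neurotrophic factor, had 0 counts in 5 libraries and 83 in replicate 3 at 48 hpf. The other receptor genes of this type went either way. The leukemia inhibitory factor receptor gene lifra had 86, 53 and 13 counts at 72 hpf, against 48, 87 and 62 at 48 hpf. The leptin receptor gene lepr had 17, 316 and 246 counts at 72 hpf, against 30, 142 and 0 at 48 hpf. The libraries of the stages overlapped in both genes.

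All 6 chemokine receptor genes had a lower estimate at 72 hpf, and 3 of them, cxcr3.2, ackr3b and ccr2, were at an unadjusted p-value under 0.05. Of the 6, cxcr3.2, ccr2 and ccr9a were at or under 3 counts in every 72 hpf library. They passed the count minimum only through 48 hpf, which fixed their direction. Only ackr3b, ccr6a and cxcr4b could have gone either way. The gene cxcr3.2 (chromosome 16 from 11818126 to 11825303), a Cxcr3 receptor gene known from zebrafish macrophages, had 0, 1 and 0 counts at 72 hpf, against 68, 111 and 54 at 48 hpf. The single count at 72 hpf fell in replicate 2. Its rate of counts was 209-fold lower at 72 hpf (95% exact interval 37.1 to 8279, counting error only), and the adjusted p-value was 0.320 from edgeR and 8.13e-05 from DESeq2. In the same replicate 2 at 72 hpf the macrophage marker genes mpeg1.1 and mfap4 had 94 and 144 counts, against 0 and 0 in replicates 1 and 3. At 48 hpf mpeg1.1 had 274, 300 and 652 counts and mfap4 215, 260 and 303. Of the 21 leukocyte marker genes 8 were at 0 in replicate 2 at 72 hpf, among them spi1b, c1qb and c1qc. The gene spi1b had 176, 154 and 316 counts at 48 hpf. The part of leukocyte RNA in the difference of cxcr3.2 was not tested.

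The gene ackr3b (chromosome 6 from 15751982 to 15757867), which encodes an atypical receptor that removes Cxcl12 from around cells, had 272, 262 and 298 counts at 72 hpf, against 459, 545 and 466 at 48 hpf. The stages did not overlap, at 297 ± 63.6 normalized counts at 72 hpf and 477 ± 77.3 at 48 hpf (SD, n = 3 each). The log2 fold change was -0.68 with a standard error of 0.23 (unadjusted p = 0.0210, adjusted p = 0.490, edgeR), and DESeq2 did not call it (adjusted p = 0.0784). The signalling receptor of the same ligand, cxcr4b, had 27, 109 and 33 counts at 72 hpf, against 152, 191 and 1 at 48 hpf, so that replicate 3 at 48 hpf was the lowest of all. Both ligand genes were found at 48 hpf only. The gene cxcl12a had 0 counts in all 72 hpf libraries and 0, 55 and 1 at 48 hpf, and cxcl12b had 0 in all 72 hpf libraries and 0, 108 and 0 at 48 hpf. Nearly all counts of both lay in replicate 2 at 48 hpf, and neither was at an unadjusted p-value under 0.05 (adjusted p = 0.592 and 0.602, edgeR).

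The C-C type receptor genes were sparse. The gene ccr2 (chromosome 16 from 8668519 to 8670413) had 0 counts at 72 hpf, against 8, 2 and 60 at 48 hpf. Its 48 hpf mean was 8.56-fold above a floor of 3 counts per library at 72 hpf. That mean was 27.3 ± 39.6 normalized counts (SD, n = 3), a spread that the ratio leaves out. The adjusted p-value was 0.542 from edgeR and 0.0423 from DESeq2. Of its 48 hpf counts most came from replicate 3, the library with the highest leukocyte marker sum, and without that library it did not pass the minimum of the test. A second gene of the symbol ccr2 stayed under the count minimum. The gene ccr9a had 48 counts in replicate 2 at 48 hpf and 0 in the other 5 libraries, and ccr6a had 15, 22 and 0 counts at 72 hpf, against 9, 20 and 28 at 48 hpf.

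Of the chemokine genes, cxcl8a (chromosome 1 from 14253118 to 14254166), the zebrafish interleukin-8 gene and a neutrophil attractant, had 98, 150 and 122 counts at 72 hpf, against 231, 400 and 205 at 48 hpf. The stages did not overlap, at 131 ± 32.6 normalized counts at 72 hpf and 261 ± 50.4 at 48 hpf (SD, n = 3 each), and the log2 fold change was -0.99, standard error 0.34 (unadjusted p = 0.0203, adjusted p = 0.488, edgeR). The adjusted p-value from DESeq2 was 0.0700. The gene cxcl14 had 63, 772 and 269 counts at 72 hpf, against 321, 577 and 272 at 48 hpf. Its replicates 1 and 2 at 72 hpf were the lowest and the highest of all 6 libraries, and its log2 fold change was 0.09 with a standard error of 0.73.

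**Figure D3:**
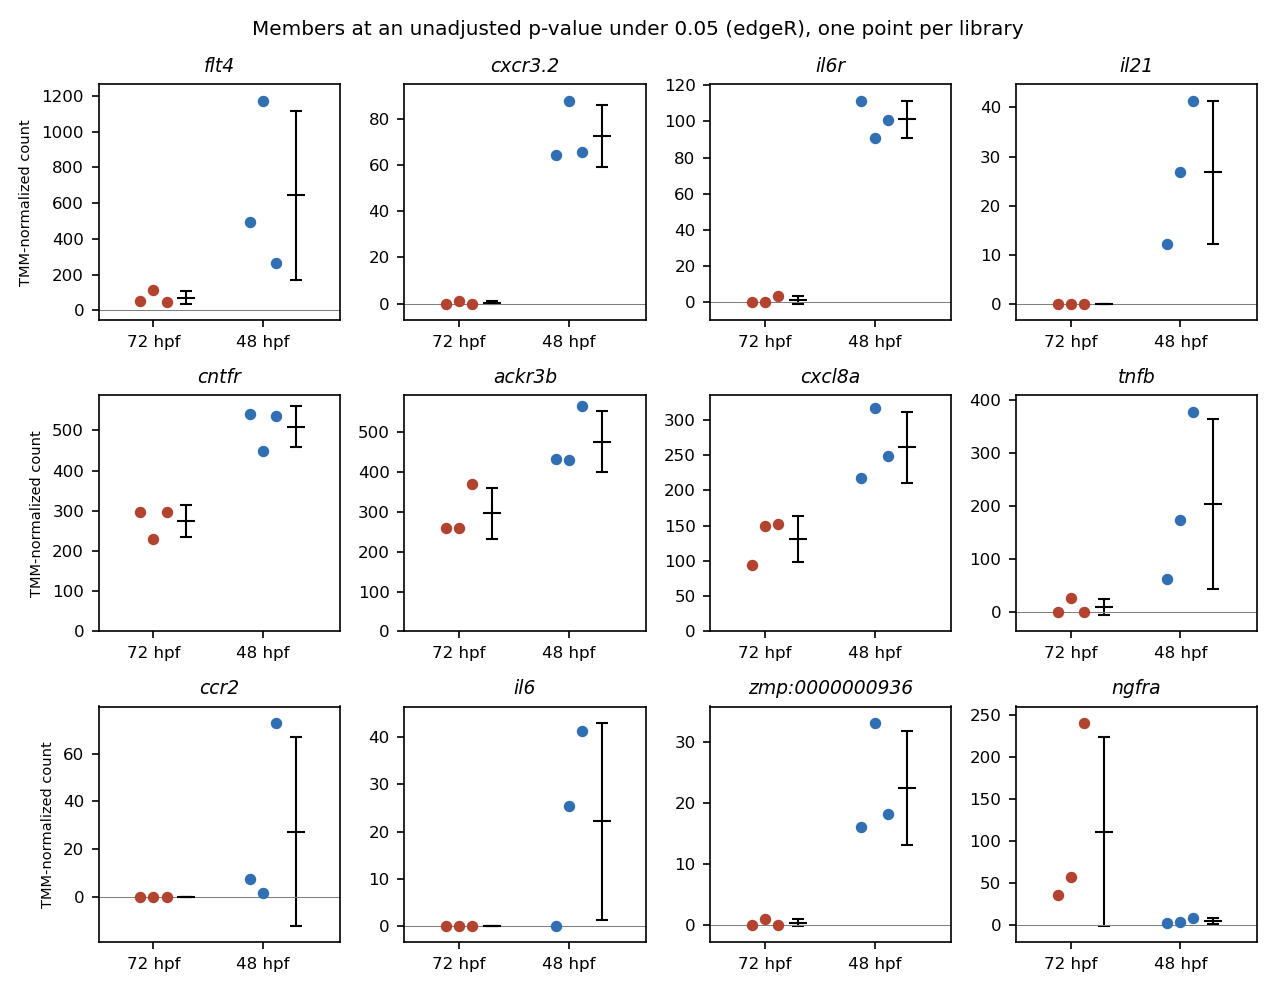
TMM-normalized counts (y axis) of the 12 members at an unadjusted p-value under 0.05 in edgeR, with 1 point per library (replicates 1 to 3 from left to right, 72 hpf red, 48 hpf blue) and the mean ± SD (n = 3) in black. Libraries at 72 hpf lay below those at 48 hpf in 10 of the panels, above them for ngfra, and touched them at 0 for il6.

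The genes il21, il21r.1, il2rga, il1b and il15 were at 0 or a few counts in at least 2 of the 3 libraries at 72 hpf, unlike the receptor genes il10rb and il13ra1 described above. The cytokine gene il21 (chromosome 14 from 1303930 to 1313480) had 0 counts in all 72 hpf libraries and 13, 34 and 34 at 48 hpf. Its 48 hpf mean was 8.40-fold above a floor of 3 counts per library at 72 hpf, a ratio that leaves out the spread at 48 hpf. The adjusted p-value of il21 was 0.435 from edgeR and 0.0140 from DESeq2. The receptor gene il21r.1 had 0, 59 and 1 counts at 72 hpf, against 74, 21 and 63 at 48 hpf, and il2rga, a gene of the common gamma chain of these receptors, had 3, 18 and 0 at 72 hpf, against 0, 46 and 60 at 48 hpf. The inflammatory cytokine gene il1b had 1, 153 and 0 counts at 72 hpf, against 2, 443 and 456 at 48 hpf, and il15 had 2, 14 and 0 at 72 hpf, against 11, 64 and 1 at 48 hpf. In il21r.1, il2rga, il1b and il15 the highest of the 72 hpf libraries was replicate 2. By CPM the same held for 30 of the 62 members, and 9 others had no counts at 72 hpf. Replicate 2 also had the most genes detected of its stage, 17015, against 15940 in replicate 1 and 15182 in replicate 3. The leukocyte markers of that stage were also highest there, and the part of leukocyte RNA in these values was not tested. For il1b, replicate 1 at 48 hpf had 2 counts although its leukocyte markers summed to 542 CPM. In that library the neutrophil marker genes mpx and npsn had 232 and 351 counts, against 0 and 0 in the other 48 hpf libraries. Of the same leukocyte list, lyz had 114, 5 and 1 counts at 48 hpf, but lect2l had 159, 45 and 164, so it was also high in replicate 3. Other leukocyte markers differed less or more between replicates 1 and 2 at 48 hpf, with mpeg1.1 at 274 and 300 counts and marco at 16 and 136. The part of these cells in il1b was not tested.

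Among Tnf ligand genes, tnfb (chromosome 15 from 34699585 to 34702661), named lymphotoxin-alpha in the table, had 0, 27 and 0 counts at 72 hpf, against 65, 218 and 311 at 48 hpf. Its stages did not overlap, and its 72 hpf counts lay in replicate 2, where 30 of the 62 members were highest at that stage by CPM. The log2 fold change was -4.47 with a standard error of 1.67 (unadjusted p = 0.0297, adjusted p = 0.541, edgeR), and DESeq2 did not call it (adjusted p = 0.302). The ligand gene tnfsf12 had 48, 154 and 0 counts at 72 hpf, against 12, 77 and 160 at 48 hpf, and tnfsf13b, a B cell factor in mammals, had at most 13 counts in any library. The Tnf receptor gene tnfrsf1b had 2, 3 and 0 counts at 72 hpf, against 19, 73 and 2 at 48 hpf (adjusted p = 0.602, edgeR). The genes tnfrsf9a and tnfrsf9b had at most 10 counts in a 72 hpf library and up to 38 and 74 counts at 48 hpf.

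The Tnf receptor family also held the 1 member that was higher at 72 hpf in DESeq2. The gene ngfra (chromosome 3 from 20156956 to 20231781), which encodes a p75-type neurotrophin receptor, had 37, 58 and 194 counts at 72 hpf, against 2, 5 and 7 at 48 hpf. The stages did not overlap, and replicate 3 at 72 hpf held most of the counts. With so few counts at 48 hpf, ngfra passed the count minimum only through its counts at 72 hpf, which limits what its difference can show. The log2 fold change was 4.52 with a standard error of 1.17 (unadjusted p = 0.00557, adjusted p = 0.400, edgeR), and the adjusted p-value was 0.000480 from DESeq2. Without replicate 3 at 72 hpf its unadjusted p-value was no longer under 0.05. Neuronal markers summed to 55.1 to 131 CPM at 72 hpf and to at most 151 CPM at 48 hpf, with overlap. In replicate 3 at 72 hpf they summed to 55.1 CPM. Of the 5 neuronal markers tested 3 had a higher and 2 a lower estimate, and DESeq2 called 1 lower. Markers of fibroblasts and mesenchyme summed to 302, 1497 and 1911 CPM at 72 hpf, against 1161, 954 and 456 CPM at 48 hpf. The part of neuronal or mesenchymal RNA in ngfra was not tested.

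The paralog ngfrb had 0, 217 and 44 counts at 72 hpf, against 15, 35 and 0 at 48 hpf, and the related gene nradd had 36, 73 and 14 counts at 72 hpf, against 119, 154 and 0 at 48 hpf, both with overlap. The gene tnfrsf11a, which encodes Rank, the receptor of an osteoclast factor in mammals, had 59, 381 and 209 counts at 72 hpf, against 268, 646 and 377 at 48 hpf. Replicate 1 was its lowest library at both stages. The gene relt had 34, 154 and 2 counts at 72 hpf, against 118, 314 and 102 at 48 hpf, and cd40, the receptor gene of a T cell ligand, had 42, 65 and 52 at 72 hpf, against 28, 84 and 134 at 48 hpf. The death receptor gene tnfrsf21 had 143, 108 and 6 counts at 72 hpf, against 29, 143 and 1 at 48 hpf, and tnfrsf19 had 82, 4 and 92 at 72 hpf, against 147, 8 and 4 at 48 hpf.

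The lowest unadjusted p-value of all members was that of flt4 (chromosome 14 from 15816509 to 15956921), which encodes Vegf receptor 3, a receptor of endothelial and lymphatic cells. It had 55, 113 and 38 counts at 72 hpf, against 526, 1481 and 216 at 48 hpf. All 72 hpf libraries lay below all 48 hpf libraries, at 70.7 ± 36.1 normalized counts at 72 hpf and 644 ± 472 at 48 hpf (SD, n = 3 each). The log2 fold change was -3.18 with a standard error of 0.62 (unadjusted p = 0.00118, adjusted p = 0.320, edgeR), the adjusted p-value from DESeq2 was 2.84e-08, and the fits without 1 library gave -3.68 to -2.42. In both stages replicate 2 was the highest library and replicate 3 the lowest.

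The endothelial gene kdrl, which the member rule leaves out, had the same order within each stage, with 198, 1044 and 73 counts at 72 hpf, against 573, 1361 and 197 at 48 hpf. The sum of 12 endothelial and endocardial markers was 106, 336 and 86.9 CPM at 72 hpf and 242, 400 and 133 CPM at 48 hpf, so that the libraries of the stages overlapped in the marker sum and not in flt4. Of the 8 markers tested 7 had a lower estimate at 72 hpf (median log2 fold change of the 8, -3.60), 2 of them at an unadjusted p-value under 0.05, and DESeq2 called 1 lower. The gene fli1a had 0 counts in all 72 hpf libraries, against 152, 333 and 165 at 48 hpf, and tek had 0, 3 and 0 counts at 72 hpf, against 55, 41 and 1 at 48 hpf. The 1 marker with a higher estimate was nfatc1, with 246, 309 and 209 at 72 hpf, against 222, 199 and 37 at 48 hpf. The part of endothelial RNA in the difference of flt4 was not tested. Its ligand gene vegfc had 59, 15 and 9 counts at 72 hpf, against 110, 72 and 3 at 48 hpf, and the Vegf receptor 2 gene kdr had 0 in all 72 hpf libraries and 0, 36 and 1 at 48 hpf. The gene kdr was not tested because its mean normalized count of 4.95 was under the minimum.

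**Figure D4:**
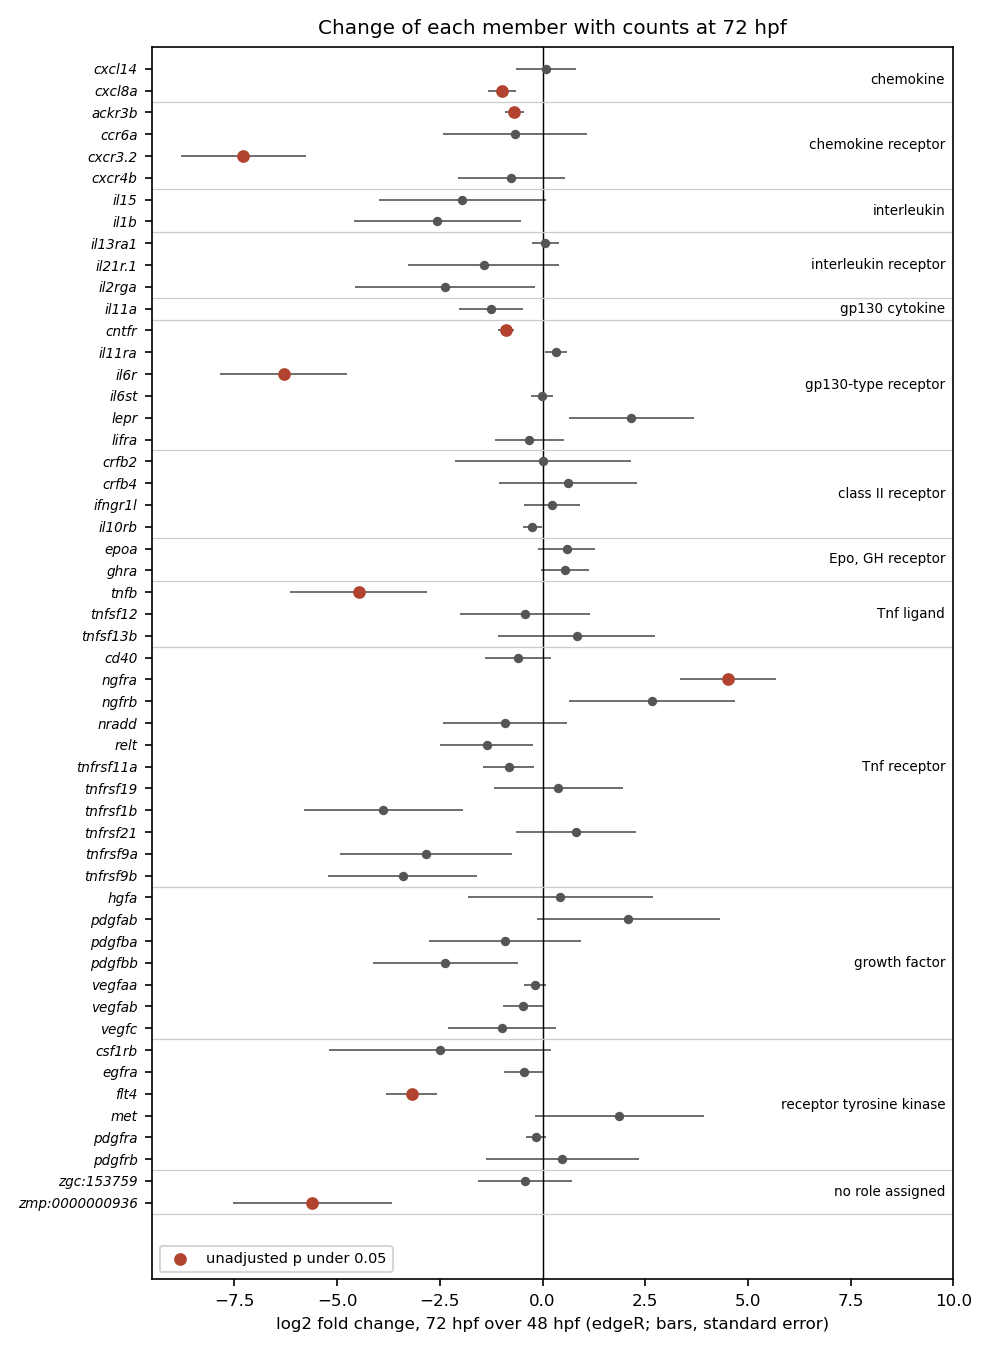
Log2 fold change of 72 hpf over 48 hpf (x axis, edgeR) for the tested members with at least 1 count at 72 hpf (rows, grouped by role), with standard errors as bars and members at an unadjusted p-value under 0.05 in red. Members at 0 in all 72 hpf libraries are not drawn. The edgeR estimates of those tested ran from -8.07 for m17 to -6.47 for kitlga. They had to be lower at 72 hpf because of the count minimum, and are part of the median in the text. Short bars near 0, as for il6st, pdgfra and vegfaa, contrast with long bars for members with few counts or with libraries of a stage far apart, such as il1b.

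Growth factor genes other than vegfaa had low or uneven counts. The second Vegfa gene, vegfab, had 220, 95 and 55 counts at 72 hpf, against 164, 222 and 155 at 48 hpf. The Kit ligand gene kitlga had 0 in all 72 hpf libraries and 12, 27 and 0 at 48 hpf. The hepatocyte growth factor gene hgfa had 30, 0 and 5 counts at 72 hpf, against 2, 30 and 0 at 48 hpf, and its receptor gene met had 3, 2 and 81 at 72 hpf, against 28, 1 and 1 at 48 hpf. In neither stage were ligand and receptor highest in the same library.

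The Pdgf receptor gene pdgfrb, which marks mural and mesenchymal cells, had 0, 114 and 188 counts at 72 hpf, against 80, 217 and 0 at 48 hpf, and the ligand gene pdgfab had 1, 123 and 47 at 72 hpf, against 0, 53 and 0 at 48 hpf. The genes pdgfrb, pdgfab, lepr and ngfrb, compared after their values were seen, all had their lowest 72 hpf library in replicate 1. At 48 hpf the highest was replicate 2 in each of them. The markers of fibroblasts and mesenchyme, of which pdgfra is one, summed to 302, 1497 and 1911 CPM at 72 hpf and 1161, 954 and 456 CPM at 48 hpf, lowest in replicate 1 at 72 hpf as well, but highest in replicate 1 at 48 hpf. Their part in these values was not tested. The other Pdgf ligand genes, pdgfbb with 10, 42 and 0 counts at 72 hpf, against 108, 205 and 2 at 48 hpf, and pdgfba with 44, 8 and 0 at 72 hpf, against 46, 3 and 41 at 48 hpf, showed no such order.

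The macrophage growth factor receptor gene csf1rb had 1, 28 and 0 counts at 72 hpf, against 0, 0 and 136 at 48 hpf. Nearly all of its counts lay in the library of each stage with the highest leukocyte and erythrocyte marker sums. It was at 0 in replicates 1 and 2 at 48 hpf, where leukocyte markers summed to 542 and 458 CPM. The part of blood cell RNA in csf1rb was not tested. The erythropoietin gene epoa, which overlaps ufsp1 on the opposite strand, had 234, 110 and 168 counts at 72 hpf, against 235, 137 and 25 at 48 hpf. The growth hormone receptor gene ghra had 153, 150 and 91 at 72 hpf, against 172, 97 and 33 at 48 hpf. Of the class II receptor genes beside il10rb, ifngr1l had 168, 83 and 32 counts at 72 hpf, against 64, 81 and 97 at 48 hpf. The gene crfb4 had 24, 87 and 0 counts at 72 hpf, against 42, 15 and 16 at 48 hpf, and crfb2, which encodes a zebrafish type I interferon receptor chain, had at most 15 counts in a library.

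The remaining members were assigned no role. The gene zmp:0000000936 (chromosome 9, 53011309 to 53062083) was found with 0, 1 and 0 counts at 72 hpf, against 17, 42 and 15 at 48 hpf, without overlap, and its rate of counts was 66.3-fold lower at 72 hpf (95% exact interval 11.5 to 2653, counting error only; adjusted p = 0.491 from edgeR and 0.0492 from DESeq2). The gene zgc:153759 had 17, 25 and 12 counts at 72 hpf, against 32, 37 and 13 at 48 hpf. It overlaps another gene of the same symbol on the same strand, so its counts are uncertain.

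Signalling genes downstream of these receptors were read from lists of genes that are not members, and edgeR called 0 genes of these lists in either direction. DESeq2 called 7 lower (irf9, ptpn6, nfkbie, nfkbiab, map3k14a, pik3r5 and elmo1) and 0 higher, where it called 3.02% and 1.25% of all genes with an adjusted p-value. Of 13 Jak and Stat genes tested, 4 had a higher and 9 a lower estimate at 72 hpf (median log2 fold change -0.33), and 1 lower gene passed an unadjusted p-value of 0.05 (2 without replicate 2 at 72 hpf). Without replicate 3 at 72 hpf the median was -0.66. The lower gene was irf9, which encodes a transcription factor of interferon signalling, with 238, 181 and 235 counts at 72 hpf, against 472, 489 and 460 at 48 hpf. Its log2 fold change was -0.99 with a standard error of 0.26 (adjusted p = 0.400 from edgeR and 0.00891 from DESeq2). The gene stat3, through which gp130 signals, had 276, 394 and 288 counts at 72 hpf, against 472, 421 and 361 at 48 hpf (log2 fold change -0.26, standard error 0.24).

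Of 22 genes for Socs proteins and other regulators of Jak-Stat signalling, 14 had a higher and 8 a lower estimate, the median log2 fold change was 0.03 (from -0.04 to 0.13 with 1 library left out), and 1 was lower at an unadjusted p-value under 0.05 (2 without replicate 3 at 72 hpf). The feedback gene socs3b, a target of Stat3, had 1914, 1705 and 1810 counts at 72 hpf, against 1827, 1817 and 1786 at 48 hpf. These counts varied less than the library totals did. Duplicate removal can cap the counts of abundant genes, so they cannot show whether the level of socs3b was alike. The gene ptpn6, for a phosphatase of blood cells, had 0 in all 72 hpf libraries and 152, 262 and 312 at 48 hpf (adjusted p = 0.142 from edgeR and 6.80e-12 from DESeq2). It was at 0 also in replicate 2 at 72 hpf, where leukocyte markers summed to 161 CPM. In that library 8 of the 21 leukocyte marker genes were at 0 as well, among them spi1b, c1qb and c1qc. How far leukocyte RNA made up the difference of ptpn6 was not tested.

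Of 28 genes of NF-kB and Tnf receptor signalling tested, 5 had a higher and 23 a lower estimate at 72 hpf (median log2 fold change -0.43). An unadjusted p-value of 0.05 was passed by 1 higher gene and 4 lower ones, against 3.12% and 5.61% of all genes. The number lower was 2 without replicate 2 at 48 hpf and 8 without replicate 2 at 72 hpf, and the number higher was 0 in each fit without 1 library except that without replicate 1 at 48 hpf. The lower genes were nfkbie, nfkbiab and nfkbiaa, which encode NF-kB inhibitors and are themselves NF-kB targets, and map3k14a, the gene of the NF-kB inducing kinase. The gene nfkbie had 50, 57 and 70 counts at 72 hpf, against 155, 294 and 186 at 48 hpf, and its log2 fold change was -1.66, standard error 0.45 (adjusted p = 0.402 from edgeR and 0.00822 from DESeq2). The adaptor gene traf4a was the higher one, with 892, 749 and 580 counts at 72 hpf, against 684, 780 and 359 at 48 hpf.

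Of 30 genes for G proteins, arrestins and other partners of chemokine receptors, 15 had a higher and 15 a lower estimate (median log2 fold change -0.04, and from -0.07 to 0.04 with 1 library left out). Past an unadjusted p-value of 0.05, gnai2b and plcb3 were higher and pik3r5 and elmo1 were lower, against 3.12% and 5.61% of all genes. In the fits without 1 library the number higher was 0 without replicate 3 at 72 hpf and 1 in the others, and the number lower was 4 without replicate 2 at 48 hpf and 2 in the others. The gene pik3r5, for a regulator of the PI3 kinase of leukocytes, had 0 in all 72 hpf libraries and 40, 84 and 14 counts at 48 hpf. The engulfment gene elmo1 had 273, 372 and 235 counts at 72 hpf, against 487, 605 and 485 at 48 hpf, without overlap (log2 fold change -0.73, standard error 0.22, adjusted p = 0.420 from edgeR and 0.0318 from DESeq2).

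By library, 43 of the 62 members had their highest CPM in a 48 hpf library and 19 in a 72 hpf library. The same share over all genes was not taken. The 13 members at or under 3 counts in every 72 hpf library passed the count minimum through 48 hpf and had to be highest there. These counts therefore describe the libraries and cannot set the members apart from other genes. At 48 hpf replicates 1, 2 and 3 were the highest for 8, 19 and 16 members, and at 72 hpf for 8, 8 and 3. Of the 61 tested members, 33 (54.1%) were at 0 counts in at least 1 library, against 25.4% of all genes tested, and 6 (9.84%) had over 80% of their counts in 1 library, against 3.70%. These were cxcl12a, cxcl12b, ccr2, ccr9a, m17 and csf1rb, each with its counts in replicate 2 or 3 at 48 hpf. These shares were not matched for level. Beyond the shared term, 13 members carried the KEGG term Focal adhesion, 8 MAPK signaling pathway and 6 Toll-like receptor signaling pathway. The gene bodies of 58 members did not overlap another gene of the table.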

How the data were processed

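Per the labels and the methods of the study, the authors trimmed single-end reads of 72 bases with Trimmomatic 0.39, aligned them with STAR 2.7.10a to danRer11, with genes from Ensembl release 104, dropped duplicates (Picard 3.0.0) and reads of ribosomal or mitochondrial origin or with several matches, and counted the rest per gene with featureCounts 2.0.4. The use of strand is not given in the sources used here. The authors deposited raw counts per gene, without normalization, for 6 libraries (3 per stage, grouped by title), and 0 further columns of library values went unused.

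The comparison used edgeR 4.0.16 (R 4.3.3, TMM, robust quasi-likelihood test) over 16100 genes with a mean normalized count above 5. Standard errors are the absolute log2 fold change over the square root of F. An exact permutation test of 3 against 3 libraries cannot go below a p-value of 0.1 and was not used. Duplicate removal in single-end data can cap the counts of abundant genes. Alternatives were DESeq2 1.42.0, limma 3.58.1 (voom, quality weights), RLE factors, library totals, other filters, a sorter covariate, a block for the replicate number, calls without the fold minimum, and each library left out. A fit without replicate 3 at 48 hpf and replicate 2 at 72 hpf was added after the data were seen. The fits were tested on simulated data.

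The members and lists were chosen with earlier results of these data known. Named with statistics were members called by either tool or at an unadjusted p-value under 0.05, members at or under 3 counts throughout a stage, and the 10 with the highest mean count. Other members were given as counts, in part after their values were seen. No sequences were used here.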

Additional observations from a re-analysis of the deposited data

How the results depend on the processing

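Over all genes, edgeR's 1 higher and 0 lower calls became 186 and 451 with DESeq2 and 2 and 9 without a filter, and 0 higher with voom, with the replicate block, with the sorter and without both doubtful libraries (replicate 3 at 48 hpf and replicate 2 at 72 hpf). Leaving out 1 library gave 0 to 1 higher and 0 lower. Among the members DESeq2 called 1 higher and 7 lower, and every other alternative called 0. At an unadjusted p-value under 0.05, the fits without 1 library gave 6 to 11 members lower and 0 to 2 higher. The median log2 fold change of the members was -0.48 with the filterByExpr filter, -0.42 without members at the floor of 3 counts, and -1.06 to -0.44 with 1 library left out. The sign of the estimate changed for cxcl14 (-0.48 with voom, -0.45 with the replicate block, -0.94 without both doubtful libraries, -0.88 to 0.60 with 1 library left out), for il13ra1 (-0.037 with voom, -0.43 without both, -0.24 to 0.27 with 1 left out), for il6st (0.0078 with library totals, -0.33 to 0.13 with 1 left out), for pdgfra (-0.30 to 0.053 with 1 left out) and for vegfaa (-0.40 to 0.034 with 1 left out). The cause was not tested. The 20 other named members that were tested kept their direction in every fit that could be made; 8 of them did not pass the filterByExpr filter, and 7 of these also missed the minimum in a fit without 1 library.

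Replicate numbers are shared between the stages by name only. The deviations of same-numbered libraries from their stage means correlated at -0.01, 0.09 and 0.01 across genes, which are not independent replicates, and not every library correlated best with its own number. With the replicate block 0 members were called, and 1 higher and 10 lower members passed an unadjusted p-value of 0.05. With 3 libraries per stage and the library totals given, members with a few counts cannot be separated from their spread.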

Other observations

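Genes of the KEGG term under the count minimum were not tested. Of 37 such genes, without the symbols left out, 8 had 0 counts in all 6 libraries, 13 had counts in 1 library only, and 0 had counts in all 6. The interferon gene ifnphi1 had 22 counts in replicate 3 at 48 hpf and 0 in the others, and the thrombopoietin receptor gene mpl had 19 counts in the same library only, the one with the highest erythrocyte and leukocyte marker sums. The chemokine receptor gene cxcr4a, the paralog of cxcr4b, had 26 counts in replicate 2 at 72 hpf and 0 in the others, and il12rb2 had 24 and flt3 had 9 counts in that library only. The receptor gene ccr9b had 23 counts in replicate 1 at 48 hpf only, where ccr9a had 0.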
